A study of Mus musculus with 12 samples.

Results

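The genes described here are 10 components of the calcineurin and NFAT pathway in cultured mouse cortical glia. They were chosen by name, as the rows of the count table for Ppp3ca, Ppp3cb, Ppp3r1, Rcan1, Rcan2, Rcan3, Nfatc1, Nfatc3, Nfatc4 and Nfat5. All 10 were found among the 43322 genes of the table, and all 10 were among the 17077 genes with enough reads to be tested. The study asked how the RNA of calcium signalling components changes when the calcium supply of these cells is disturbed. Polyadenylated RNA was sequenced from 12 cultures in 3 groups of 4 replicates. The thapsigargin group received 3 µM thapsigargin, which blocks the SERCA pump and so the refilling of calcium stores in the endoplasmic reticulum, for 60 min. The calcium-free group was kept for 60 min in medium without calcium, with the chelator EGTA. The labels call the control group a vehicle control. All 3 groups were wild-type CD1 cultures made from the frontal cortices of mice at postnatal days 3 to 5, each preparation from 1 mouse. They were grown with serum, B27 and 10 ng/ml EGF, split on day 7 in vitro and used 3 to 7 days later. The labels describe the cells both as glial cells and as primary cultured astrocytes.

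Calcineurin is a phosphatase that is switched on by calcium and calmodulin. It is made of a catalytic subunit, which in most tissues is the product of Ppp3ca or Ppp3cb, and the calcium-binding regulatory subunit encoded by Ppp3r1. It removes phosphate groups from the NFATc transcription factors, which then enter the nucleus, and kinases such as GSK3 and DYRK send them back out. The RCAN proteins bind calcineurin and can restrain it, and the Rcan1 gene has an internal promoter that NFATc factors are known to act on, so that Rcan1 is widely used as a readout of the pathway. Nfat5 shares the DNA-binding domain of the family but lacks the calcineurin docking region, and it is best known as a driver of the response to hypertonic stress. In astrocytes the pathway is known mainly from work on reactive and inflammatory states.

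The promoters of the genes that rose are shown first, because the pathway's own transcription factors bind the core sequence GGAAA. RefSeq promoter windows on build GRCm38.p6 were found for 8 of the 10 genes, in 12 entries, since some genes have several annotated starts. The windows printed here are the 250 bases before each start, 5′ to 3′ on the strand of the gene. Capitals mark GGAAA on either strand, so that it also appears as TTTCC. The pair of Rcan1 windows lies on the minus strand of chromosome 16, the first at chr16:92466170-92466419 and the inner one at chr16:92400079-92400328, and the starts are 66.1 kb apart. The Nfatc3 windows are at chr8:106058568-106058817 and chr8:106059340-106059589 and the Nfat5 window is at chr8:107293220-107293469, all on the plus strand.
Rcan1, first start: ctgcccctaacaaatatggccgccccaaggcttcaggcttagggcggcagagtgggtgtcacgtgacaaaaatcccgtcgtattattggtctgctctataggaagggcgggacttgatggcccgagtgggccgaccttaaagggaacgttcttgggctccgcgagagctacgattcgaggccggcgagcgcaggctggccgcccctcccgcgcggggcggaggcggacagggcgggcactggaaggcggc
Rcan1, inner start: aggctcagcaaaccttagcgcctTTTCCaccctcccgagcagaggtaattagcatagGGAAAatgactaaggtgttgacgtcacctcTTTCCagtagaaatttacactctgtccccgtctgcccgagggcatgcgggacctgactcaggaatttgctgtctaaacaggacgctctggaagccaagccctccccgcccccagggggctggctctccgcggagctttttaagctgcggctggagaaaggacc
Nfatc3, first start: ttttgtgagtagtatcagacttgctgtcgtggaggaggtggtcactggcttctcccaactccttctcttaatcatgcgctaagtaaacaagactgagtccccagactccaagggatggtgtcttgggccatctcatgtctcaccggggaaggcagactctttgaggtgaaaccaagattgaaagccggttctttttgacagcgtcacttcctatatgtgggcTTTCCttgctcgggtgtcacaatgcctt
Nfatc3, inner start: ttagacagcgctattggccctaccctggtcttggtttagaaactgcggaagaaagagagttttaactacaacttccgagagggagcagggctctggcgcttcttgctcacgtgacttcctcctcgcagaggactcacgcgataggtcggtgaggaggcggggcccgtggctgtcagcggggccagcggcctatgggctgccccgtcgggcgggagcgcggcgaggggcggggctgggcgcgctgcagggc
Nfat5: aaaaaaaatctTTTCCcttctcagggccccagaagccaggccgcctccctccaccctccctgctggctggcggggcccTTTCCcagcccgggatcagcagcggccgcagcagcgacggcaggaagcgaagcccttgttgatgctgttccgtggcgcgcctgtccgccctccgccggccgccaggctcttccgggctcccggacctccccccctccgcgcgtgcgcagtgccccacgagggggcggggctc

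The inner Rcan1 window held 3 GGAAA matches, which begin 227, 193 and 163 bases before the start, and the first Rcan1 window held 0. At least 3 matches were found in 6.39% of the 32851 windows of this length in the same table, and at least 1 in 55.6% of them. The inner window also held 1 match to TGACGTCA, the cyclic AMP response element, which 1.55% of windows hold, and 1 match to TGANTCA, the AP-1 element, which 6.75% of windows hold. Both of these motifs read the same on either strand, and neither match overlaps a GGAAA match. The Nfat5 window held 2 GGAAA matches, a number that 21.4% of windows reach, while the Nfatc3 windows held 1 and 0. Of the other genes, the windows held 3 matches at Nfatc4, 3 at Ppp3cb, 1 at Rcan3 and 0 at Ppp3r1, and the windows at the 3 Rcan2 starts held 2, 0 and 0. These are matches of letters and not measured binding sites. The counts were made per gene and do not tell which of the Rcan1 starts was in use.

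The libraries held between 36191501 and 42569101 counts each. Of 10 astrocyte markers, the summed level ranged from 7227 to 8275 CPM (counts scaled to a common library size) in thapsigargin cultures, 8392 to 9234 CPM in calcium-free cultures and 8094 to 9141 CPM in control cultures, and Slc1a3, the astrocyte glutamate transporter GLAST, was at 2079 CPM or more in every library. Slc1a3 averaged 2181 CPM in thapsigargin and 2638 CPM in control cultures. At an adjusted p under 0.05, edgeR gave Slc1a3 and Gja1 as lower and Sox9 as higher with thapsigargin than in control. The other 7 astrocyte markers did not pass. Of 8 neuron markers the sums were 350.1 to 388.8 CPM in thapsigargin cultures, 416 to 454.6 CPM in calcium-free cultures and 395.8 to 427.7 CPM in control cultures, with every thapsigargin library below every control library. The markers did not move together. Of the 6 tested, edgeR gave Stmn2 as lower and Gad1 as higher with thapsigargin at an adjusted p under 0.05, and 4 did not pass. Stmn2 averaged 118 CPM in thapsigargin and 149.8 CPM in control cultures, and Map2, which did not pass, 206.6 and 217.1 CPM. The sums of 8 microglia markers were 88.82 to 95.04 CPM in thapsigargin replicates 1 to 3, 100.2 to 108.5 CPM in those of calcium-free medium and 115.5 to 125.1 CPM in those of control, and 62.9, 74.67 and 76.25 CPM in replicate 4 of the same groups. The part of these shifts in the results was not tested. The mature neuron marker Rbfox3 reached at most 0.173 CPM and the myelin gene Mog at most 0.0555 CPM. The libraries numbered replicate 4 stood apart from the other 9 in all 3 groups. Xist was at 588 to 740 CPM in the 3 replicate 4 libraries and at most 0.319 CPM in the others, and the Y-linked gene Ddx3y was at most 0.0954 CPM in replicate 4 and at least 63.1 CPM in the others. The summed level of 7 vascular and fibroblast markers was 367.4, 556.9 and 515.6 CPM in replicate 4 of the thapsigargin, calcium-free and control groups, against 1160 to 1518 CPM in the other 9 libraries. Most of this sum was collagen RNA. In thapsigargin cultures Col1a1 and Col1a2 averaged 433.3 and 514.1 CPM, and the highest of the other tested markers, Pdgfrb, 30.3 CPM. The endothelial gene Kdr ranged only from 6.628 to 8.022 CPM there. Where leaving the replicate 4 libraries out changed a call of the 10 genes or a call made with the replicate number as a block, the value without them is given. In RNA from a mixed culture, fewer cells of a type and less RNA per cell cannot be told apart.

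Rcan1 stood out among the 10 genes: its RNA was 1.87 times the control level after 60 min of thapsigargin and 1.06 times it in calcium-free medium. Nfatc3 and Nfat5 rose in both conditions. With no block and no exon length correction, the fitted values of the 3 calcineurin subunits lay between -0.11 and 0.09 on the log2 scale against control in both conditions. In thapsigargin against control cultures, 4 of the 10 genes passed an adjusted p of 0.05, beside 31.2% of all genes tested. Of these, 3 were higher, beside 16.4% of all genes, and 1 was lower, beside 14.8%. The libraries of the groups did not overlap for the same 4 genes, beside 31.8% of all genes. In calcium-free against control cultures, 2 were called, beside 5.33% of all genes, both of them higher, beside 3.78%, and 0 were lower, beside 1.55%. These 2 genes were also the ones whose libraries did not overlap, beside 10.5% of all genes. The edgeR test gave 0 of the 10 genes as lower at an unadjusted p under 0.05 in that comparison, and DESeq2 also called 0 lower. The median log2 fold change of the 10 genes was 0.11 for thapsigargin and 0.04 for calcium-free medium against control, beside -0.05 and -0.01 over all genes tested. Both comparisons use the same 4 control libraries.

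**Figure D1:**
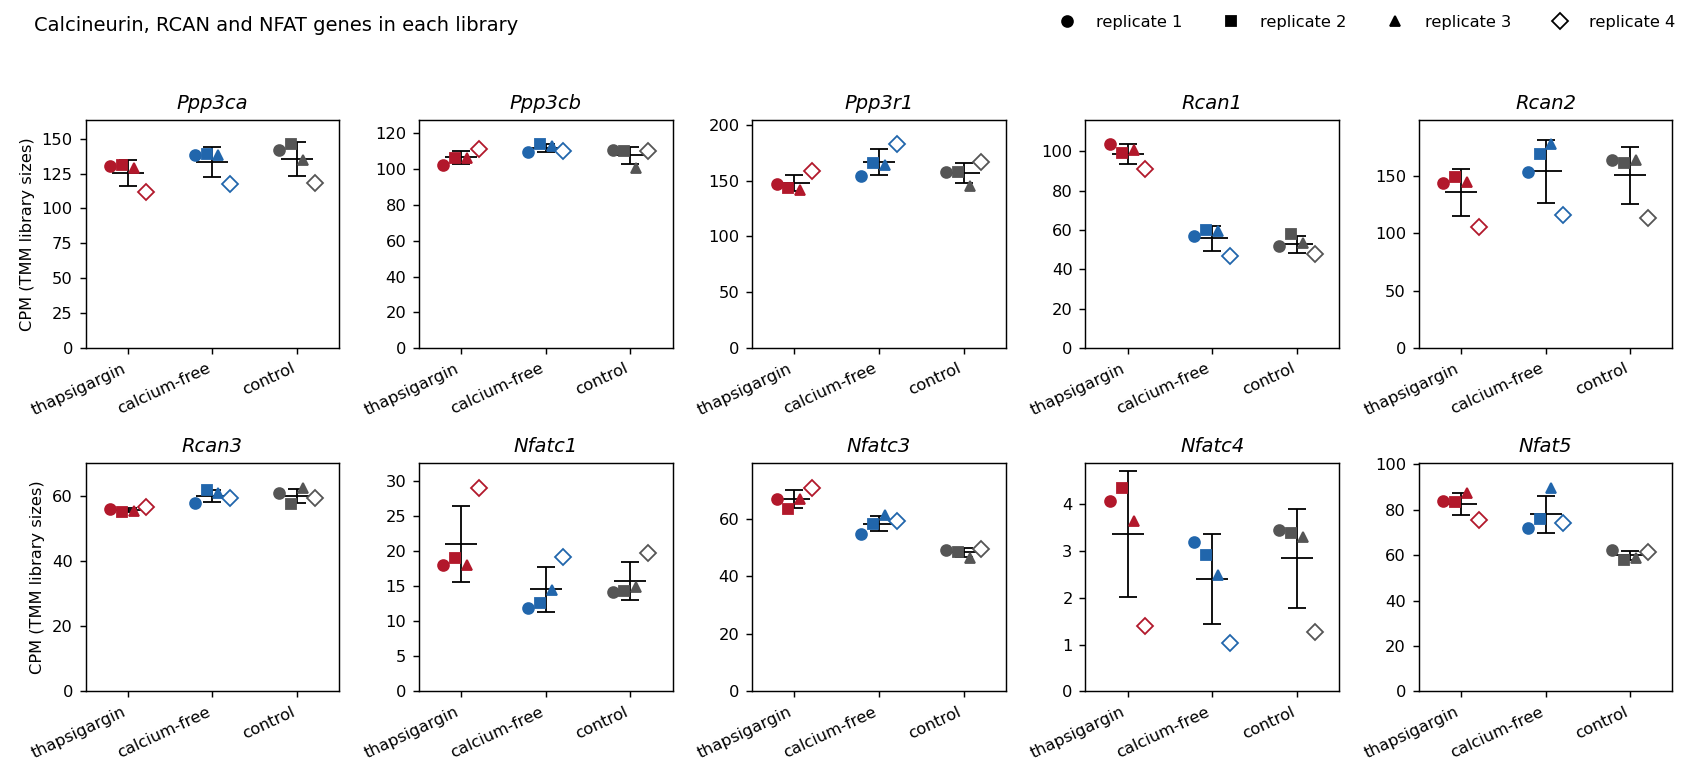
Level of each of the 10 genes in every library, in CPM on TMM library sizes (vertical axes start at 0). Points are libraries, with replicate 4 as an open diamond, and bars give the mean and SD of the 4 libraries of a group. The 4 thapsigargin libraries of Rcan1 lie between 91.24 and 103.5 CPM, and the libraries of the other groups between 46.77 and 60.0 CPM.

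The libraries of the groups overlapped for both catalytic subunits. Ppp3ca, the alpha catalytic subunit, was at 130.7, 131.3, 128.8 and 111.7 CPM in thapsigargin cultures, 138.3, 139.3, 138.0 and 117.2 CPM in calcium-free cultures, and 142.2, 145.8, 134.8 and 118.2 CPM in control cultures. Replicate 4 was the lowest library of each group, and the groups overlapped. The log2 fold change was -0.11 ± 0.08 (SE, n = 4 each) for thapsigargin against control, with an adjusted p of 0.351, and -0.02 ± 0.08 for calcium-free against control, with an adjusted p of 0.965. With the replicate number as a block, the thapsigargin difference was called lower with an adjusted p of 0.00311, and Ppp3ca was lower in all 4 numbered pairs, by between 0.07 and 0.15 on the log2 scale. Without replicate 4 of every group it was not called, at -0.07 with an adjusted p of 0.0608. With the trend of fold change on exon length removed, Ppp3ca was at -0.2 for thapsigargin against control, with an adjusted p of 0.0859. With the block as well it was called lower, at -0.2 with an adjusted p of 7.88e-06. Of the numbered pairs here and below, only those of number 4 stood out as matched across groups. Deviations from the group mean correlated at 0.814 to 0.836 for number 4 and at 0.159 to 0.392 for numbers 1 to 3. Different numbers among 1 to 3 gave 0.238 to 0.412. Ppp3cb, the beta catalytic subunit, was at 102.3, 106.5, 106.2 and 111.4 CPM in thapsigargin cultures, 109.8, 113.8, 113.2 and 110.4 CPM in calcium-free cultures, and 110.5, 110.0, 100.8 and 110.2 CPM in control cultures. Its ranges overlapped throughout. The 95% interval of its log2 fold change ran from -0.10 to 0.07 for thapsigargin against control.

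Ppp3r1 encodes the regulatory B subunit, without which the catalytic subunits are not active. It was at 147.0, 143.8, 141.6 and 158.2 CPM in thapsigargin cultures, 154.0, 165.5, 164.3 and 182.3 CPM in calcium-free cultures, and 157.5, 157.5, 145.1 and 166.7 CPM in control cultures. The 3 groups overlapped, and replicate 4 was the highest library in each. Neither difference from control was called, with log2 fold changes of -0.09 ± 0.06 for thapsigargin (SE, n = 4 each, adjusted p of 0.308) and 0.09 ± 0.06 for calcium-free medium (adjusted p of 0.53). Between thapsigargin and calcium-free cultures it was called lower, by -0.17 ± 0.06 on the log2 scale with an adjusted p of 0.0439. That call was lost in 8 of the 12 fits that left out 1 library, in which its adjusted p reached 0.128, and the 8 libraries were thapsigargin replicates 1, 2 and 3, calcium-free replicates 2, 3 and 4, and control replicates 1 and 2. With the replicate number as a block, the difference between thapsigargin and control was also called lower, with an adjusted p of 0.0339. It was not called without replicate 4 of every group, at -0.05 with an adjusted p of 0.277, nor with the block and the exon length trend removed, at -0.07 with an adjusted p of 0.0863. The fit with both block and length did call Ppp3r1 higher in calcium-free against control cultures, at 0.11 with an adjusted p of 0.033.

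Rcan1, on chromosome 16 at 92188839 to 92263057 (GRCm39, minus strand), encodes the inducible member of the calcineurin inhibitors. It was at 103.5, 99.16, 100.6 and 91.24 CPM in thapsigargin cultures, 56.8, 60.0, 59.56 and 46.77 CPM in calcium-free cultures, and 52.04, 57.8, 53.43 and 47.63 CPM in control cultures. Every thapsigargin library lay above every library of the other groups, and the calcium-free and control libraries overlapped. The thapsigargin mean was 98.6 ± 5.24 CPM, against 52.7 ± 4.19 CPM in control (SD, n = 4 each), a 1.87-fold rise. Its log2 fold change was 0.90 ± 0.08 (SE), with a 95% interval from 0.73 to 1.08 and an adjusted p of 6.48e-06, and the 4 numbered pairs gave 0.78 to 0.99. By p-value it ranked 260 among the 17077 genes. Calcium-free cultures averaged 55.8 ± 6.17 CPM, and the difference from control was 0.08 ± 0.08 on the log2 scale with a 95% interval from -0.09 to 0.26 and an adjusted p of 0.736. Set against each other directly, thapsigargin cultures had 0.82 ± 0.08 more on the log2 scale than calcium-free cultures, with an adjusted p of 2.8e-05.

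Rcan2 encodes the calcineurin regulator that is abundant in brain. It was at 143.3, 149.0, 144.4 and 105.5 CPM in thapsigargin cultures, 153.3, 168.9, 177.1 and 115.6 CPM in calcium-free cultures, and 163.4, 160.7, 163.7 and 113.4 CPM in control cultures. Replicate 4 was by far the lowest library in each group, at 0.725, 0.695 and 0.697 times the mean of the other 3 libraries of its group. The log2 fold change for thapsigargin against control was -0.15 ± 0.16 (SE, n = 4 each), which was not called with an adjusted p of 0.524. The difference had the same sign in all 4 numbered pairs, between -0.19 and -0.10, and was called lower with the replicate number as a block, with an adjusted p of 0.00142. It was also called lower without replicate 4 of every group, at -0.12 with an adjusted p of 0.0199.

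Rcan3, the least abundant RCAN gene per length, was at 56.06, 55.15, 55.45 and 56.49 CPM in thapsigargin cultures, 57.74, 61.93, 61.03 and 59.36 CPM in calcium-free cultures, and 60.83, 57.6, 62.52 and 59.29 CPM in control cultures. All 4 thapsigargin libraries lay below the libraries of both other groups, by a small margin. Its log2 fold change was -0.11 ± 0.04 for thapsigargin against control (SE, n = 4 each), with an adjusted p of 0.0378, and the value between calcium-free and control cultures was 0.00 with a 95% interval from -0.08 to 0.08. The thapsigargin call was lost in 6 of the 12 fits that left out 1 library, with adjusted p up to 0.115. The libraries were thapsigargin replicates 1, 2 and 3, calcium-free replicate 4, and control replicates 1 and 3. It was also lost without a filter on low counts (adjusted p of 0.334), with RLE size factors (0.0649), with only the groups compared (0.0698), and without replicate 4 of every group (0.094). The call held with upper quartile factors (0.00744), with the exon length trend removed (0.00644) and with a filter of 1 CPM in 4 libraries (0.0327). It also held with the replicate block (0.0154), with block and length together (0.00127) and in DESeq2 (0.0487). In TPM, values per exon length that are not rescaled by TMM, the sign turned and the groups overlapped: Rcan3 was at 30.52 to 30.94 TPM in thapsigargin cultures and 28.87 to 31.29 TPM in control cultures.

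The make-up of the RCAN family therefore differed between the groups. TPM values, which divide counts by summed exon length and so allow genes of 1 library to be compared, summed over the 3 RCAN genes to 230.9 ± 19.1 in thapsigargin cultures, 184.9 ± 23.3 in calcium-free cultures and 175.6 ± 17.4 in control cultures (SD, n = 4 each). Rcan1 made up 47.4% ± 1.74 of that sum in thapsigargin cultures, 31.3% ± 0.815 in calcium-free cultures and 30.5% ± 1.90 in control cultures. Rcan2 made up 39.3% in thapsigargin cultures, against 52.2% in control cultures. The larger share of Rcan1 in the thapsigargin libraries is its rise in CPM seen on another scale.

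Nfatc1 is the NFATc gene best known for amplifying its own expression in cells such as osteoclasts and T cells. It was at 17.98, 19.05, 18.01 and 29.09 CPM in thapsigargin cultures, 11.93, 12.65, 14.44 and 19.21 CPM in calcium-free cultures, and 14.19, 14.35, 14.89 and 19.82 CPM in control cultures. Replicate 4 was the highest library in each group, and the control replicate 4 library lay above 3 of the 4 thapsigargin libraries. The log2 fold change for thapsigargin against control was 0.41 ± 0.19 (SE, n = 4 each) and was not called, with an adjusted p of 0.123. Within the numbered pairs the difference was 0.27 to 0.55, and with the number as a block it was called higher, at 0.40 with an adjusted p of 1.13e-05. Without replicate 4 of every group it was called as well, at 0.38 with an adjusted p of 0.000121. Calcium-free cultures differed from control by -0.12 ± 0.19, with a 95% interval from -0.53 to 0.30.

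Nfatc3, on chromosome 8 at 106785450 to 106857169 (GRCm39), a calcineurin-dependent family member known from the thymus and from smooth muscle, was the most abundant of the NFAT genes per length in all 3 groups. It was at 66.82, 63.5, 66.94 and 70.91 CPM in thapsigargin cultures, 54.88, 58.14, 61.4 and 59.29 CPM in calcium-free cultures, and 49.16, 48.36, 46.35 and 49.73 CPM in control cultures. The 3 groups did not overlap: every thapsigargin library was above every calcium-free library, and every calcium-free library was above every control library. Nfatc3 rose 1.39-fold in thapsigargin cultures against control, with a log2 fold change of 0.47 ± 0.05 (SE, n = 4 each) and an adjusted p of 1.06e-05. It rose 1.21-fold in calcium-free cultures against control, by 0.27 ± 0.05 on the log2 scale with an adjusted p of 0.00535. Thapsigargin cultures were higher than calcium-free cultures by 0.20 ± 0.05, with an adjusted p of 0.00584.

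Nfatc4, a calcineurin-dependent member known from heart and neurons, had the lowest TPM of the 10 genes. It was at 4.079, 4.353, 3.644 and 1.392 CPM in thapsigargin cultures, 3.189, 2.916, 2.483 and 1.035 CPM in calcium-free cultures, and 3.443, 3.385, 3.293 and 1.264 CPM in control cultures. The replicate 4 libraries held 0.346, 0.362 and 0.375 times the mean of the other 3 libraries of the thapsigargin, calcium-free and control groups. The log2 fold change for thapsigargin against control was 0.25 ± 0.41 (SE, n = 4 each), with an adjusted p of 0.708. All 4 numbered pairs were higher with thapsigargin, by 0.13 to 0.36, and the difference was called with the number as a block, at 0.24 with an adjusted p of 0.0355. It was called without replicate 4 of every group too, at 0.29 with an adjusted p of 0.0334. The value for calcium-free against control was -0.25 ± 0.42, with an adjusted p of 0.889.

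Nfat5, on chromosome 8 at 108020072 to 108106149 (GRCm39), was at 84.04, 83.57, 87.19 and 75.54 CPM in thapsigargin cultures, 71.86, 76.0, 89.75 and 74.31 CPM in calcium-free cultures, and 62.17, 57.83, 58.57 and 61.34 CPM in control cultures. Both treated groups lay wholly above control and overlapped each other. Nfat5 rose 1.38-fold with thapsigargin, by 0.46 ± 0.07 on the log2 scale (SE, n = 4 each, adjusted p of 0.000252), and 1.30-fold in calcium-free medium, by 0.38 ± 0.07 (adjusted p of 0.00786). The difference between thapsigargin and calcium-free cultures was 0.08 ± 0.07, with a 95% interval from -0.06 to 0.23 and an adjusted p of 0.406. Nfat5 has 20917 bases of exon, more than 98.4% of the genes tested, and Nfatc3 has 8918, more than 88.0% of them. With the trend of fold change on exon length removed, the log2 fold changes against control for thapsigargin and for calcium-free medium were 0.34 and 0.29 for Nfat5 and 0.38 and 0.22 for Nfatc3, and all 4 were still called.

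**Figure D2:**
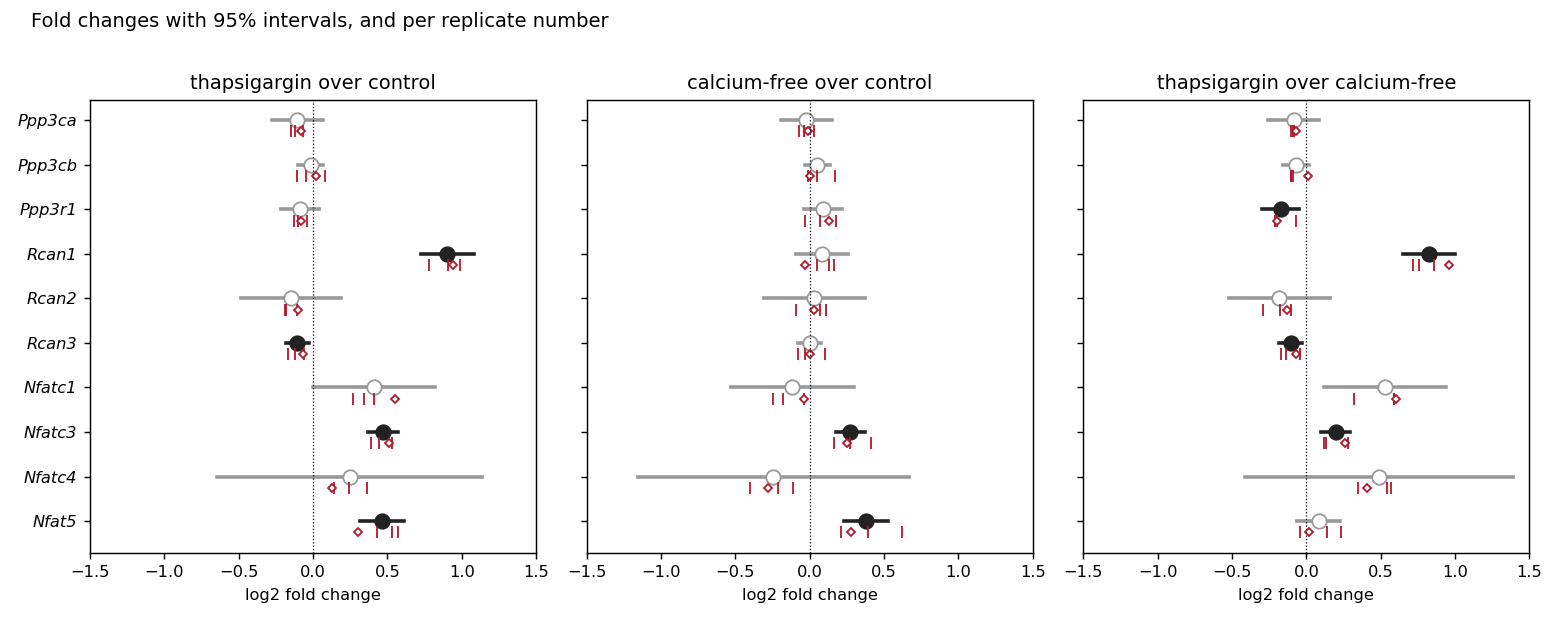
Log2 fold changes of the 10 genes in the 3 comparisons. Circles are the fitted values with 95% intervals, filled black where the adjusted p was under 0.05, and red marks below them are the differences within each replicate number, with number 4 as a diamond. Rcan1 is at 0.90 against control and 0.82 against calcium-free medium, while its interval for calcium-free against control runs from -0.09 to 0.26.

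With thapsigargin set directly against calcium-free medium, 4 of the 10 genes were called, beside 27.9% of all genes tested. Rcan1 and Nfatc3 were the 2 called higher, beside 14.6%, and Ppp3r1 and Rcan3 were the 2 called lower, beside 13.2%. The libraries of 3 genes, Rcan1, Nfatc3 and Rcan3, did not overlap, beside 28.3% of all genes. Rcan3 was lower by -0.11 ± 0.04 on the log2 scale (SE, n = 4 each), with an adjusted p of 0.0434, and that call was lost in 8 of the 12 fits that left out 1 library, with adjusted p up to 0.129. The libraries were all 4 of thapsigargin, calcium-free replicates 2, 3 and 4, and control replicate 1. Without replicate 4 of every group the Rcan3 call was lost too, with an adjusted p of 0.0874. Nfatc1 was at 0.53 ± 0.19, with an adjusted p of 0.055. It passed the threshold with the replicate number as a block, with an adjusted p of 9.15e-07, and without replicate 4 of every group, with an adjusted p of 1.02e-05. Nfatc4 was not called, with an adjusted p of 0.427, but was with the block (0.000372) and without replicate 4 (0.00131). Rcan2 was not called either, at 0.433, but was lower with the block (0.000313) and without replicate 4 (0.0044). Ppp3ca was lower with the block (0.0152) and not called without replicate 4 (0.18). With the number as a block, 8 of the 10 genes were called in this comparison, 4 higher and 4 lower, beside 49.4% of all genes under the same block. In thapsigargin against control 9 were called with the block, 5 higher and 4 lower, beside 51.2% of all genes. In calcium-free against control the block left the count at 2, beside 17.4%. Without replicate 4 of every group the counts were 6 in thapsigargin against calcium-free, beside 41% of all genes, 6 in thapsigargin against control, beside 45.5%, and 2 in calcium-free against control, beside 15.6%.

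Per length, the regulatory subunit was the most abundant of the 10 genes in all groups. Ppp3r1 averaged 146.3 TPM in thapsigargin cultures, 154.2 TPM in calcium-free cultures and 141.9 TPM in control cultures. On this scale the thapsigargin mean was the higher one, while in CPM it was the lower one, at 147.7 CPM in thapsigargin cultures and 156.7 CPM in control cultures. The same held for Ppp3ca, which averaged 35.6 TPM in thapsigargin cultures and 34.9 TPM in control cultures. It held for Ppp3cb as well, at 62.1 TPM in thapsigargin cultures and 57.4 TPM in control cultures. In control cultures Ppp3r1 was followed by Rcan2 at 92.1 TPM, Ppp3cb at 57.4 TPM, Rcan1 at 53.3 TPM, Ppp3ca at 34.9 TPM and Rcan3 at 30.2 TPM. The NFAT genes came after these, with Nfatc3 at 13.9 TPM, Nfat5 at 7.34 TPM, Nfatc1 at 5.33 TPM and Nfatc4 at 1.81 TPM. Ppp3cb and Rcan1 overlapped in control cultures, as did Ppp3ca and Rcan3, and the other neighbours in this order did not overlap. In thapsigargin cultures Rcan1 moved up to 109.2 TPM, where it overlapped Rcan2 at 91.1 TPM. The NFAT genes summed to 42.2 ± 1.17 TPM in thapsigargin cultures, 33.5 ± 2.01 TPM in calcium-free cultures and 28.4 ± 0.94 TPM in control cultures (SD, n = 4 each). The pair of catalytic genes summed to 97.6 ± 1.86 TPM, 96.0 ± 3.11 TPM and 92.3 ± 3.65 TPM in the same groups. Sums in TPM are not rescaled by TMM. In CPM both catalytic genes had lower means with thapsigargin than in control. Ppp3ca averaged 125.6 against 135.3 CPM and Ppp3cb 106.6 against 107.9 CPM.

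**Figure D3:**
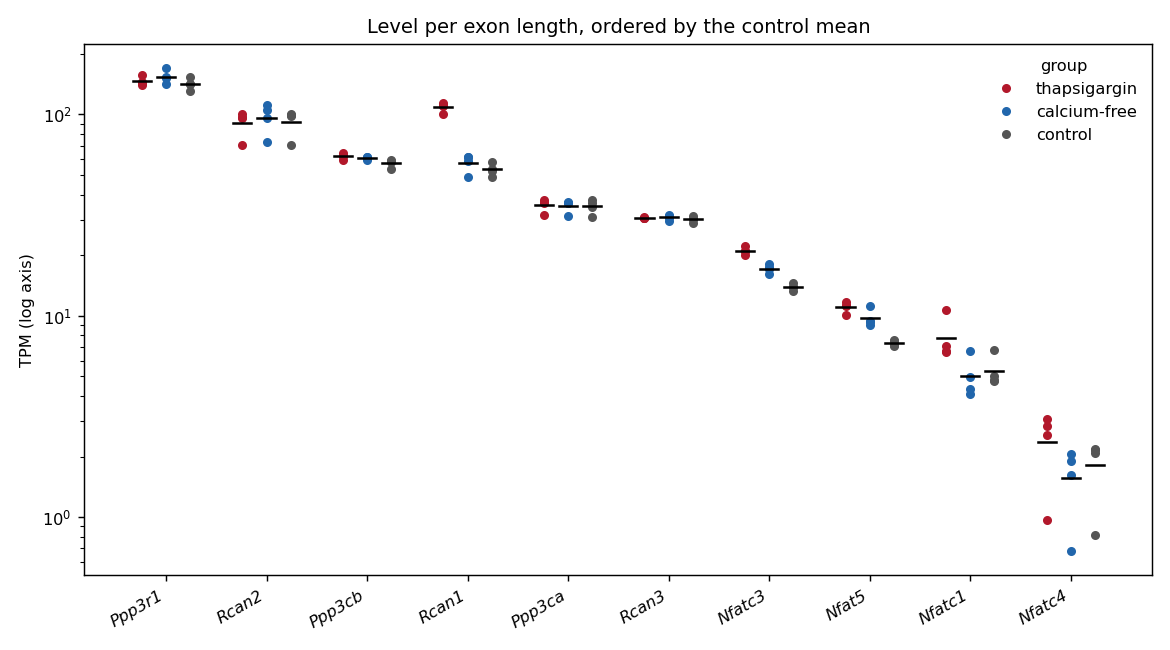
Level per exon length of the 10 genes in TPM, on a log axis, with genes in the order of their control mean. Points are libraries, with the thapsigargin group on the left and control on the right of each gene, and bars are group means. Ppp3r1 is the most abundant gene in every group, and Rcan1 is at 109.2 TPM in thapsigargin cultures against 53.3 TPM in control cultures.

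Other genes of the pathway were followed in 7 lists by role, 62 genes of which had enough reads to be tested. The lists were chosen with earlier results of these data known, so their shares and medians beside all genes are a description only. In thapsigargin against control cultures, 21 of the 62 were called higher and 13 lower, or 33.9% and 21%, beside the 16.4% and 14.8% of all genes. Without replicate 4 of every group 30 were called higher and 15 lower, in a fit that called 45.5% of all genes. Upstream of calcineurin, Calm2 and Calm3, whose product calmodulin carries the calcium signal to the phosphatase, fell. Calm2 fell to 293.2 CPM in thapsigargin cultures, against 386.6 CPM in control cultures, with a log2 fold change of -0.40 ± 0.08 (SE, n = 4 each) and an adjusted p of 0.00169. Calm3 changed by -0.19. Of 9 tested inhibitors, anchors and immunophilins, 5 fell and 0 rose, beside 14.8% and 16.4% of all genes. Among the 5 were Fkbp1a at -0.17 and Fkbp8 at -0.19, which belong to the FK506-binding proteins. At an unadjusted p under 0.05 edgeR gave 1 of the 9 as higher, the mitochondrial anchor Akap1 at 0.15, named here after its value was seen, and DESeq2 called 1 higher and 5 lower.

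Of 14 tested NFAT kinases and export genes, 4 rose and 2 fell with thapsigargin, beside 16.4% and 14.8% of all genes. The number called higher was 6 with the replicate block and 9 without replicate 4 of every group, and the number called lower was 2 in both. Over all genes, the block gave 3920 higher and 4817 lower of 17077 tested. Without replicate 4 of every group the numbers were 4147 and 3598 of 17004. Dyrk1a, a kinase that primes NFATc proteins for export from the nucleus, averaged 163.2 ± 7.87 CPM in thapsigargin cultures and 112.3 ± 8.16 CPM in control cultures (SD, n = 4 each). Its log2 fold change was 0.54 ± 0.07 (SE), with an adjusted p of 0.000113, and Dyrk2 rose by 0.39. Of 13 genes for other calcineurin substrates, 7 rose and 1 fell, beside 16.4% and 14.8% of all genes. Crtc3, a coactivator of CREB that calcineurin releases to the nucleus, averaged 44.9 ± 1.81 CPM in thapsigargin cultures, against 27.4 ± 0.961 CPM in control cultures, and rose by 0.71 ± 0.05 with an adjusted p of 7.82e-07. The MEF2 factors Mef2d and Mef2a, which calcineurin also acts on, rose by 0.47 and 0.35.

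Of 12 tested genes on the list of NFATc targets, 7 rose with thapsigargin and 0 fell, beside 16.4% and 14.8% of all genes. The median log2 fold change of the 12 was 0.74, beside -0.05 over all genes. At an unadjusted p under 0.05 edgeR also gave 0 of them as lower, and DESeq2 called 7 higher and 0 lower, but the replicate block gave 1 lower, as did the fit without replicate 4 of every group. Nr4a1, an orphan nuclear receptor gene, had the smallest p of the list and was at 160.3 ± 41.9 CPM in thapsigargin cultures and 16.4 ± 2.87 CPM in control cultures (SD, n = 4 each). Its log2 fold change was 3.29 ± 0.20 (SE), with an adjusted p of 7.17e-07. Myc, which drives growth, averaged 29.0 ± 1.26 CPM in thapsigargin cultures and 15.7 ± 1.13 CPM in control cultures, and rose by 0.89 ± 0.06 with an adjusted p of 1.04e-06. Several genes of this list, Nr4a1 and Myc among them, are also known as early response genes of other calcium and growth factor signals. Of 8 tested NFAT5 targets, 3 rose and 2 fell, beside 16.4% and 14.8% of all genes. Slc6a6, the taurine transporter that takes up an osmolyte, fell to 99.6 ± 17.9 CPM in thapsigargin cultures, against 167.1 ± 14.7 CPM in control cultures, with a log2 fold change of -0.75 ± 0.12 and an adjusted p of 0.000495. The heat shock gene Hspa1a rose by 0.56, but it has a near-identical neighbour in Hspa1b, and reads of the pair may have been split between them.

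In calcium-free against control cultures, 5 of the 62 genes were called higher, or 8.06% beside 3.78% of all genes, and 0 lower. At an unadjusted p under 0.05, edgeR gave 16 higher and 1 lower, and DESeq2 called 9 higher and 0 lower. The 5 genes were Crtc3, Mef2a, Mef2d, Myc and Itpr1. Mef2a rose by 0.42 with an adjusted p of 0.00252, and Crtc3 rose to 33.3 CPM, by 0.28 with an adjusted p of 0.0051. Itpr1, the calcium release channel of the endoplasmic reticulum, averaged 76.7 CPM in calcium-free cultures and 59.2 CPM in control cultures, with an adjusted p of 0.0368. The calls of Itpr1, Myc and Mef2d were each lost in some of the fits that left out 1 library, where their adjusted p reached 0.121, 0.0801 and 0.102. For Itpr1 these were 9 of the 12 libraries, all but thapsigargin replicate 4, calcium-free replicate 1 and control replicate 4. For Myc they were calcium-free replicates 2 and 3 and control replicate 1, and for Mef2d those 3 with thapsigargin replicates 2 and 3 and control replicate 2. With the replicate number as a block, 20 of the 62 genes were called in this comparison, 19 higher and 1 lower, beside 17.4% of all genes. Without replicate 4 of every group 17 were called higher and 3 lower, beside 15.6% of all genes. In the other lists the genes with the smallest p-values were not called. They were at 0.27 for Lrrk2 and 0.15 for Gsk3b, both kinases, at 0.26 for Slc38a2 and 0.14 for Hspa4l on the NFAT5 list, at -0.06 for Fkbp8 and -0.10 for Homer3, and at -0.01 for Calm3 and -0.03 for Calm2 on the log2 scale. In thapsigargin against calcium-free cultures, 16 of the 62 genes were called higher and 12 lower, or 25.8% and 19.4%, beside 14.6% and 13.2% of all genes.

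**Figure D4:**
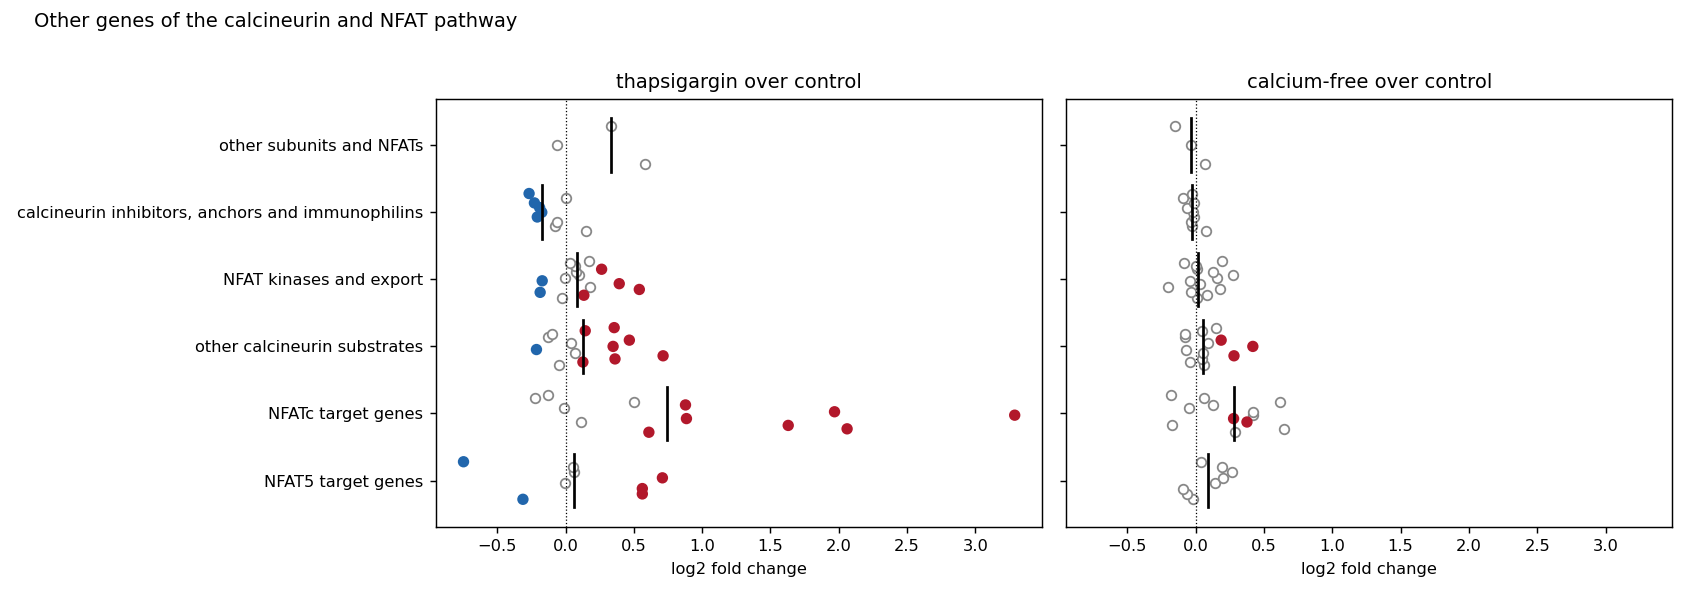
Log2 fold changes of other pathway genes in 6 of the lists, for thapsigargin over control on the left and calcium-free over control on the right. Points are genes, filled red where called higher and blue where called lower at an adjusted p under 0.05, open where not called, and black bars are list medians. The NFATc targets reach 3.29 (Nr4a1) with thapsigargin.

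The genes whose pattern over the 12 libraries was most like that of the called genes were named as a description. They share the groups and libraries with them. Pearson correlation of log2 CPM with Rcan1 was highest for Resf1 at 0.991, Nfil3 at 0.985 and Ddit3 at 0.982, of 14577 named genes ranked. Ddit3 encodes CHOP, a factor of the endoplasmic reticulum stress response. For Nfatc3 the highest were Dusp11 at 0.986, Ncoa6 at 0.984 and Cdc27 at 0.983, and for Nfat5 they were Tanc2 at 0.959, Ncoa1 at 0.957 and Dgki at 0.957. Rcan3 had lower values, with Ttll12 at 0.94, Pgm3 at 0.937 and Rheb at 0.922.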

How the data were processed

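Polyadenylated RNA of 12 glial cultures was sequenced from stranded TruSeq libraries, per the labels' protocols. The authors deposited a table of estimated counts per gene, 14.2% to 15.9% of whose values in a library are not whole. The submitters' processing notes name bcl2fastq 2.20.0.422, cutadapt 1.17, STAR 2.7.2b, featureCounts 1.6.4 and build GRCm39; the sources used here do not give parameters or the strand setting, so antisense and overlapping genes were checked, and those overlapping the 10 genes reached at most 1.25 CPM.

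Counts were rounded to whole numbers. All 12 libraries (36191501 to 42569101 counts) were fitted together in edgeR 4.0.16 (R 4.3.3, limma 3.58.1): filterByExpr with a minimum count of 10, TMM, robust quasi-likelihood test, Benjamini-Hochberg adjustment over 17077 genes, calls at an adjusted p under 0.05. Levels are CPM on TMM library sizes, and TPM from summed exon lengths. Alternatives were other scalings, DESeq2 1.42.0, other filters, an exon length correction, a replicate block, only the groups compared, and libraries left out. Samples of the same replicate number deviated together (r above 0.1 in all 12 pairs), with r of 0.814 to 0.836 for replicate 4 but 0.159 to 0.392 for replicates 1 to 3, where different numbers gave 0.238 to 0.412. By the rule of r above 0.1 in every pair, block values stand beside results whose call they change. Different numbers among 1 to 3 pass the same rule, so it does not show that these numbers are matched across groups. The labels call the replicates biological but do not say which cultures share an animal, so p-values measure the spread between these samples.

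The 10 genes and the pathway lists were chosen with earlier results of these data known. Named from each list were the 2 genes with the smallest p in each comparison with control from which the text quotes values; for each called gene of the 10, the 3 genes most correlated with it, leaving out unnamed, Gm and Rik symbols. Promoter windows came from RefSeq on GRCm38.p6, and no coordinates were converted between builds. A result for 1 gene of the lists is not reported here.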

Additional observations from a re-analysis of the deposited data

Results flagged for a closer look

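Within the groups of 4 libraries, 8 of 30 sets of values held a library far from the other 3 by Dixon's ratio at its 95% critical value for 4 values. Chance flags about 1 in 20 groups. In 7 of the 8 the library was replicate 4. Ppp3ca was low there, at 111.7 CPM in thapsigargin and 117.2 CPM in calcium-free cultures. Rcan2 was low, at 105.5 CPM in thapsigargin and 113.4 CPM in control cultures, and Nfatc4 was low at 1.264 CPM in control cultures. Nfatc1 was high, at 29.09 CPM in thapsigargin and 19.82 CPM in control cultures. The remaining value was Ppp3cb at 100.8 CPM in control replicate 3, where the other control libraries lay between 110.0 and 110.5 CPM. The summed oligodendrocyte lineage markers were 1465, 1578 and 1484 CPM in replicate 4 of the thapsigargin, calcium-free and control groups, and 1154 to 1199, 1248 to 1287 and 1322 to 1383 CPM in replicates 1 to 3 of these groups. The part of cell make-up and of sex in these values was not tested.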

How the results depend on the processing

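The calls against control of Rcan1 with thapsigargin, and of Nfatc3 and Nfat5 in both conditions, held under every alternative run. Of 132 comparisons of counts of calls with an alternative, 105 stayed within 1.5 times. With the replicate block, thapsigargin against control gave 9 of the 10 genes, beside 51.2% of all genes (7 with the exon length trend removed as well, beside 48%, 6 without replicate 4 of every group, 3 to 4 leaving out 1 library), and thapsigargin against calcium-free gave 8, beside 49.4% (9 with the length trend removed, 2 with no filter, 2 with only the groups compared, 2 to 5 leaving out 1 library). In calcium-free against control the count stayed at 2 of the 10 genes, except with block and length together. That fit gave 3, with Ppp3r1 added, beside 17% of all genes. The block changed the calls of Ppp3ca, Ppp3r1, Rcan2, Nfatc1 and Nfatc4 against control. Of the pathway lists, the 5 calls in calcium-free against control became 20 with the block, 19 with block and length, 3 with length, 9 with DESeq2, 2 with only the groups compared, 20 without replicate 4 of every group, and 2 to 8 leaving out 1 library; the 28 in thapsigargin against calcium-free became 43 with the block, with or without length, and 22 to 32 leaving out 1 library. Over all genes, calcium-free against control gave 646 higher and 265 lower, and 524 and 372 with upper quartile scaling. Some uncalled values changed sign. For thapsigargin against control these were Ppp3cb (0.02 with no filter, 0.01 without replicate 4 of every group, -0.05 to 0.00 leaving out 1 library) and Nfatc4 (0.00 to 0.50 leaving out 1 library). For calcium-free against control, Rcan3 was at 0.01 with RLE factors and with DESeq2, and at 0.00 with no filter, with only the groups compared and without replicate 4. Leaving out 1 library gave -0.02 to 0.02 for Rcan3, -0.08 to 0.03 for Ppp3ca, -0.08 to 0.14 for Rcan2, -0.29 to 0.01 for Nfatc1 and -0.49 to 0.01 for Nfatc4. The cause of these changes was not tested. Among the 10 genes, Rcan2, Nfatc1 and Nfatc4 had the widest 95% intervals with all 12 libraries and no block.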

Other observations

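Ppp3cc, a catalytic subunit best known from testis, had a log2 fold change of -0.07 ± 0.10 for thapsigargin against control (SE, n = 4 each), with an adjusted p of 0.673 in edgeR. Nfatc2, a family member best known from T cells, averaged 1.65 CPM in thapsigargin cultures and 1.11 CPM in control cultures. Its log2 fold change was 0.58 ± 0.25, with an adjusted p of 0.103. With the replicate number as a block it was called higher, at 0.57 with an adjusted p of 0.00283, and without replicate 4 of every group at 0.66 with an adjusted p of 0.00466. The testis form of the regulatory subunit, Ppp3r2, was at 0.34 ± 0.36 with an adjusted p of 0.538.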
